A study of Mus musculus with 4 samples.

Results

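The 7 genes described here encode the flavoprotein dehydrogenases of mitochondrial fatty acid oxidation and the proteins that carry their electrons to the respiratory chain. They are the acyl-CoA dehydrogenases of very-long-chain (Acadvl), long-chain (Acadl), medium-chain (Acadm) and short-chain (Acads) substrates, the 2 subunits of electron transfer flavoprotein (Etfa and Etfb) and electron transfer flavoprotein dehydrogenase (Etfdh). Members were chosen by name, as every probe set annotated with 1 of these symbols and no other, which gave 8 probe sets for 7 of the 12393 genes named on the array. Acadl had 2 probe sets and each of the other genes had 1. Total RNA came from gastrocnemius, the large calf muscle, and was hybridised to Affymetrix mouse arrays, 1 array per sample. MCK-PPARa mice carry a transgene that overexpresses PPARα in muscle, driven by the promoter of muscle creatine kinase, and the controls were their non-transgenic littermates (NTG). There were 2 arrays of each genotype, and the sources used here do not give the age, sex or strain of the mice. The labels call the 2 arrays of a genotype replicates without naming the animal behind each, and every p-value therefore covers the spread between these arrays only, which may be technical.

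Acyl-CoA dehydrogenases catalyse the first step of each turn of the β-oxidation spiral. Each takes electrons from an acyl-CoA on to its bound FAD, and which enzyme acts depends on the length of the acyl chain left. Electron transfer flavoprotein, a soluble dimer of an alpha and a beta subunit in the mitochondrial matrix, collects the electrons from all of these enzymes. Etfdh, an iron-sulphur flavoprotein of the inner membrane, passes them to ubiquinone. In humans, loss of either subunit or of ETFDH blocks all of these dehydrogenases at once, while loss of a single dehydrogenase blocks its own chain lengths. PPARα, a nuclear receptor activated by fatty acids, binds DNA together with RXR, at a direct repeat of AGGTCA half-sites with a single base between them, and genes of fatty acid oxidation are known targets in liver, heart and muscle. The comparison asks how the transcripts of these enzymes differ when PPARα is raised in muscle.

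The stretch of DNA upstream of 4 of the genes is shown, since these genes had the largest change, the smallest changes or a match to the PPARα half-site. Each is the 250 bases before the RefSeq gene start in GRCm38.p6, 5′ to 3′ on the strand of the gene, which is the minus strand for all 4. The regions are chr3:79628768-79629017 for Etfdh, chr11:70015429-70015678 for Acadvl, chr3:153944644-153944893 for Acadm and chr9:55512244-55512493 for Etfa. Capitals mark an exact AGGTCA on either strand, or a match to AGGTCANAGGTCA on either strand with at most 2 mismatches.
Etfdh: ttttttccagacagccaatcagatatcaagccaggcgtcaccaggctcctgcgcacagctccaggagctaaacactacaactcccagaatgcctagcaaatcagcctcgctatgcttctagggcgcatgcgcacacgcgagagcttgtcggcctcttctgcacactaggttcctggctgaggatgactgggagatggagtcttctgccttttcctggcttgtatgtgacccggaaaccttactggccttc
Acadvl: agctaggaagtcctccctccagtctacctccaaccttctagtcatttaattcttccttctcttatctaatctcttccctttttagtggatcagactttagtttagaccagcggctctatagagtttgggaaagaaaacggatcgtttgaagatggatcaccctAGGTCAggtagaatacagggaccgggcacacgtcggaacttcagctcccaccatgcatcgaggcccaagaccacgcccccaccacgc
Acadm: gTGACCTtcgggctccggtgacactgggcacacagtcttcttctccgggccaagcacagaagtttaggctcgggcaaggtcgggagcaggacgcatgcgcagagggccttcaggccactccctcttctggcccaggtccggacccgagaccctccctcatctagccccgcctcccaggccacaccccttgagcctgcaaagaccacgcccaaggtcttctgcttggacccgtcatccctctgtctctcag
Etfa: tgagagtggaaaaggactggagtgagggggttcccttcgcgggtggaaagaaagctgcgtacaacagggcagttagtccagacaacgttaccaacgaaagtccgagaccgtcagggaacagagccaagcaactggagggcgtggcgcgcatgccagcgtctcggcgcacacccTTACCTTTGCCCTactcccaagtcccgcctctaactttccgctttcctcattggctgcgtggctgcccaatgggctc
All 7 genes had 1 such window in the table, and both strands were searched. An exact AGGTCA was found in 2 of the 7, from position -87 to -82 before the start of Acadvl and, on the opposite strand, from -249 to -244 before the start of Acadm. Of all 32851 RefSeq windows of this length, 14.0% hold it. The whole repeat AGGTCANAGGTCA, which contains the half-site at either end, had no exact match in the 7 windows and stands in 0.0335% of all windows. With up to 2 mismatches it had 1 match, in Etfa from -77 to -65 on the opposite strand, against 3.24% of all windows. These matches describe letters in these windows only.

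All 7 genes had higher signals in both MCK-PPARa samples than in both NTG samples. The differences ran from 1.52-fold for Acadm to 5.02-fold for Etfdh, and the median of the 7 was 1.17 on the log2 scale, beside 0.05 for all genes tested. Of the genes tested, 20.3% were higher with groups that did not overlap. The change of a gene is its mean log2(signal + 64.2) in MCK-PPARa less that in NTG, with standard errors from limma (SE, n = 2 per group), for the brightest probe set of each gene, and the fold values are taken from them. Changes of dim genes come out too small on this scale, but the lowest NTG signal of any of the 7 was 3011, far above the offset, and all 7 passed the filter on dim probe sets by their NTG signals alone. None of the 7 reached a limma adjusted p of 0.05 over the 8400 genes tested, where 0.0595% did (5 genes). At an unadjusted limma p under 0.05, 6 of the 7 were higher, where 3.33% of all genes were higher at that threshold. The 7 genes were chosen with earlier results of these data known, so that share gives no independent test of them. Whether a difference reflects more transcript per fibre or another mix of cells cannot be told apart in RNA from whole muscle.

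**Figure D1:**
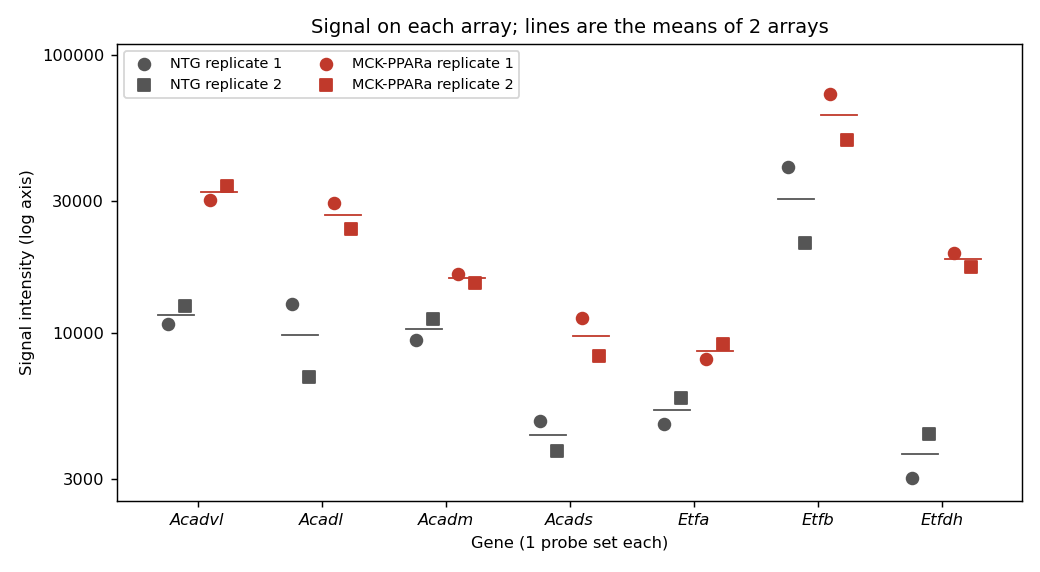
Signal intensity (log axis) of the 7 genes on each of the 4 arrays, grey for NTG and red for MCK-PPARa, circles for replicate 1 and squares for replicate 2, with a line at the mean of each group. For every gene both red points lie above both grey points, with the widest gap for Etfdh (3011 and 4352 against 19517 and 17387).

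The arrays were comparable in scale and differed by replicate number. Their 2% trimmed mean signals lay between 1500.6 and 1500.7, and their median signals between 582 and 700.3. The probe set for Ppara, the overexpressed gene, had NTG signals of 633 and 2674 against 7969 and 15226 in MCK-PPARa. On the replicate 1 arrays the control probe set for the 5′ part of 18S ribosomal RNA had signals of 2202 and 2313, and on the replicate 2 arrays 28.9 and 44.7. What a replicate number stands for is not stated in the labels, so each change is also given within the replicate 1 pair and within the replicate 2 pair of arrays, where no test is possible. For 2 arrays against 2, the smallest two-sided p of an exact permutation test is 0.333.

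Etfdh, the last step, had the largest difference of the 7. On the NTG arrays its signal was 3011 (replicate 1) and 4352 (replicate 2), and on the MCK-PPARa arrays 19517 (replicate 1) and 17387 (replicate 2). The transgenic values were thus several times those of the controls, and the spread within each genotype was small beside that gap. The change was 2.33 ± 0.31 (SE), or 5.02-fold with a 95% interval of 3.05 to 8.24. Etfdh ranked 15 of 8400 genes by change and 9 by p, with a limma adjusted p of 0.070. Its change was 2.67 within the replicate 1 pair and 1.98 within the replicate 2 pair. With any 1 of the 4 arrays left out, its change was 2.07 to 2.59, with an SE of 0.46 to 0.47. In those fits the lone sample of a group is assumed to vary like the others, so their p-values are not given.

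Acadvl encodes the membrane-bound enzyme that takes the longest acyl-CoAs in mitochondria. Its signal was 10857 and 12516 in NTG against 30313 and 34040 in MCK-PPARa. The 2 samples of each genotype lay close together, and the groups were far apart. The change was 1.46 ± 0.29 (2.75-fold, 95% interval 1.72 to 4.38, limma adjusted p = 0.19). Its value was nearly the same in both array pairs, 1.48 for replicate 1 and 1.44 for replicate 2.

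Acadl encodes a matrix enzyme that, in mice, shares the oxidation of long chains with Acadvl. The brighter of its probe sets read 12799 and 6952 in NTG against 29535 and 23741 in MCK-PPARa. Replicate 1 was the higher sample in both genotypes, and the NTG samples differed from each other more than for Acadvl. The change was 1.48 ± 0.37 (2.79-fold, 95% interval 1.55 to 5.03, limma adjusted p = 0.33), with 1.20 for replicate 1 and 1.76 for replicate 2. Without NTG replicate 1, its brighter control, the change was 1.92. The second Acadl probe set was dim and did not pass the filter, with 207 and 291 in NTG against 418 and 496 in MCK-PPARa. It had the same direction at 0.74 ± 0.53, with a 95% interval of -0.45 to 1.94, when all 20380 single-symbol probe sets were tested without a filter (limma adjusted p = 0.98).

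Acadm encodes the medium-chain enzyme, whose human deficiency is the best known disorder of this pathway. Its signal was 9499 and 11245 in NTG against 16364 and 15232 in MCK-PPARa, so the groups did not overlap but the gap was narrow. The change was 0.61 ± 0.29 (1.52-fold), the smallest of the 7, and its 95% interval of 0.96 to 2.42-fold includes no difference. Of the 7 it alone missed the unadjusted threshold, with an unadjusted limma p of 0.068 and an adjusted p of 0.89 over all genes. Its changes between the array pairs were 0.78 and 0.44.

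Acads encodes the short-chain enzyme, which acts on butyryl-CoA in the last turns of the spiral. The signals were 4828 and 3764 in NTG against 11349 and 8293 in MCK-PPARa. As for Acadl, replicate 1 was the brighter sample in both genotypes. The change was 1.17 ± 0.31 (2.26-fold, 95% interval 1.37 to 3.73, limma adjusted p = 0.38), with 1.22 and 1.13 between the array pairs.

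By substrate, the differences did not fall in the order of chain length. Over all 4 arrays the change was 1.48 for Acadl, 1.46 for Acadvl, 1.17 for Acads and 0.61 for Acadm. SEs of differences between members come from the 4 arrays alone, without limma's pooling over genes, and are imprecise with 2 arrays per group. The mean change of Acadvl and Acadl was 1.47 and that of Acadm and Acads 0.89, a difference of 0.58 ± 0.17 (SE, n = 2 per group). Between the array pairs this difference was 0.34 and 0.82, in the same direction, and its two-sided exact permutation p was 0.333, the smallest the design allows. Acadvl exceeded Acadm by 0.85 ± 0.14, with 0.70 and 1.00 in the array pairs. Acads exceeded Acadm by 0.57 ± 0.34, with 0.44 and 0.69. Acadvl minus Acadl was -0.02 ± 0.59, with 0.27 in one pair and -0.32 in the other, so these enzymes were not ordered by these arrays. Acadl minus Acads was 0.31 ± 0.27, with -0.02 in the replicate 1 pair and 0.64 in the replicate 2 pair, so their order was not the same in both pairs. Acadvl minus Acads was 0.28 ± 0.42, with 0.25 in the replicate 1 pair and 0.31 in the replicate 2 pair, and lay within its error.

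**Figure D2:**
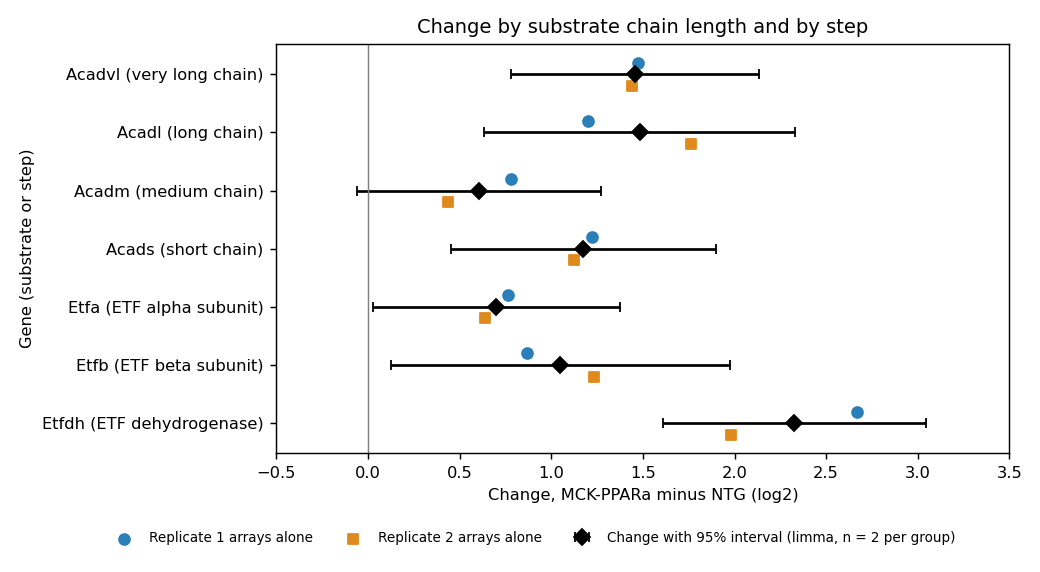
Change of each gene on the log2 scale, MCK-PPARa minus NTG, ordered by substrate chain length and then by step. Diamonds are the changes over all 4 arrays with 95% intervals from limma, circles the replicate 1 arrays alone and squares the replicate 2 arrays alone. The interval of Acadm reaches below 0 and that of Etfdh starts at 1.61.

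The subunits of electron transfer flavoprotein differed less between the genotypes than Etfdh. Etfa, the alpha subunit, read 4739 and 5858 in NTG against 8083 and 9166 in MCK-PPARa. All 4 samples were ordered by genotype, with replicate 2 the higher in each. The change was 0.70 ± 0.29 (1.63-fold, 95% interval 1.02 to 2.59, limma adjusted p = 0.81), with 0.76 and 0.64 between the array pairs. Etfb, the beta subunit, read 39865 and 21165 in NTG against 72898 and 49767 in MCK-PPARa. Here replicate 1 was much the higher sample in both genotypes, and the spread within a genotype was wider than the gap between the nearest samples of the groups. The change was 1.05 ± 0.40 (2.07-fold, 95% interval 1.09 to 3.94, limma adjusted p = 0.74), with 0.87 and 1.23 between the array pairs. Without NTG replicate 2, its dimmer control, the change of Etfb was 0.59, the smallest of the 7 in that fit. Etfb minus Etfa was 0.35 ± 0.71, so no unequal change of the subunits was resolved.

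By step, the mean change was 1.18 for the 4 dehydrogenases, 0.88 for the flavoprotein subunits and 2.33 for Etfdh. Etfdh exceeded the mean of Etfa and Etfb by 1.45 ± 0.41, that is 2.73-fold, with 1.85 and 1.05 between the array pairs. It exceeded the mean of the dehydrogenases by 1.15 ± 0.36, with 1.50 and 0.79. The dehydrogenases exceeded the flavoprotein subunits by 0.30 ± 0.05, with 0.35 and 0.26. Each of these had an exact permutation p of 0.333. In all, 11 such differences between members were computed, and none could pass an adjusted threshold in this design.

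With the replicate number as a block in the limma fit, 5 of the 7 genes rose. They were Etfdh (adjusted p = 0.0015), Acadvl (0.0049), Acadl (0.0076), Acads (0.017) and Etfb (0.028), while Etfa (0.13) and Acadm (0.19) did not pass. In that fit 1.37% of all genes rose (115 of 8400), and the fit leaves 1 residual degree of freedom per gene. The SE fell most for Etfb (from 0.40 to 0.20) and Acadl (from 0.37 to 0.21), whose replicate 1 arrays were the brighter in both genotypes, as they were for Acads.

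**Figure D3:**
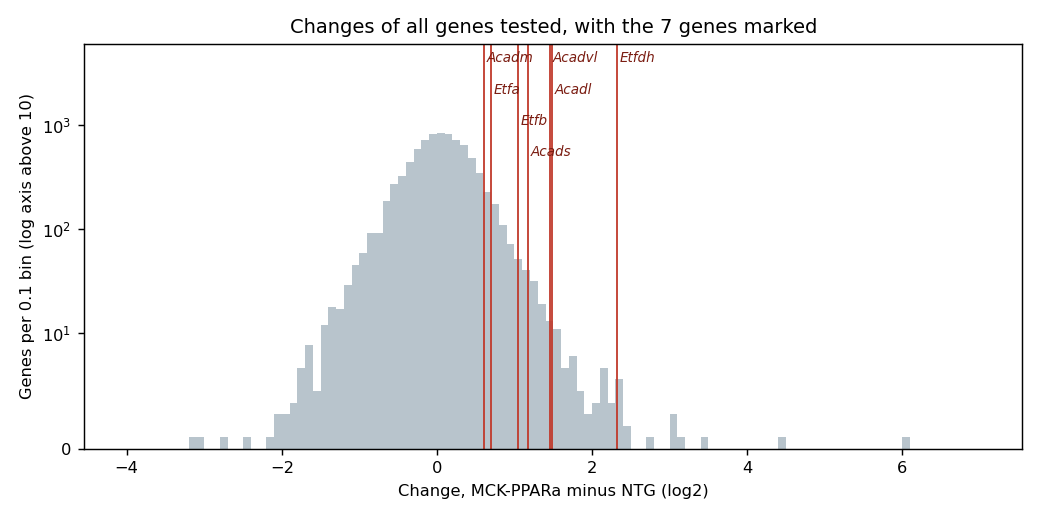
Number of genes per 0.1 bin of change on the log2 scale, MCK-PPARa minus NTG, for the 8400 genes tested, on an axis that is linear to 10 and logarithmic above. Red lines mark the 7 genes, from Acadm at 0.61 to Etfdh at 2.33, all to the right of the median of all genes (0.05).

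Among other genes of the route, those before and after the dehydrogenase step had median changes of like size. Enzymes and carriers of carnitine entry, which bring acyl groups into the matrix, had a median change of 1.02 over the 5 tested of 6 listed. Of these the acylcarnitine carrier Slc25a20 was at 2.36 ± 0.34, the inner-membrane transferase Cpt2 at 2.12 ± 0.46, the carnitine acetyltransferase Crat at 1.02 ± 0.38, the carnitine importer Slc22a5 at 0.53 ± 0.29 and the outer-membrane transferase Cpt1a at -0.27 ± 0.32. Cpt1b, the other gene listed, had no probe set named for it alone and was not tested. Of the 5 tested, none passed the limma test over all genes and 3 rose with the block, where 1.37% of all genes rose. Later steps of the spiral, listed together with the thioesterase Acot2, had a median of 1.11 over 10 genes, all above 0, from 0.25 to 2.03. Echs1 (0.25 ± 0.29), Acot2 (0.32 ± 0.42) and Hsd17b10 (0.48 ± 0.32) had the smallest changes, and the groups of Acot2 overlapped. None of the 10 passed the test, and 7 rose with the block, against the same 1.37% of all genes. The smallest p among them were those of Decr1 (2.03 ± 0.30), which reduces intermediates of unsaturated chains, the enoyl-CoA isomerases Eci2 (1.23 ± 0.28) and Eci1 (1.18 ± 0.31), and the hydroxyacyl-CoA dehydrogenase Hadh (1.22 ± 0.33).

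Further genes feed the same flavoproteins or supply their FAD. Other acyl-CoA dehydrogenases and donors to electron transfer flavoprotein had a median change of 0.11 over the 5 tested of 12 listed, and none passed with or without the block. Acad11, a long-chain acyl-CoA dehydrogenase relative, stood highest, with 1619 and 2092 in NTG against 3393 and 4087 in MCK-PPARa (0.99 ± 0.31, limma adjusted p = 0.53, and 0.0503 with the block). Acad9, which also helps assemble respiratory complex I, was at 0.34 ± 0.47, and its groups overlapped. Enzymes of branched-chain amino acid breakdown, Ivd for leucine (-0.22 ± 0.31) and Acad8 for valine (0.11 ± 0.32), and the lysine and tryptophan pathway enzyme Gcdh (-0.14 ± 0.45) had overlapping groups too. The 3 tested genes of FAD supply were all slightly below 0. They were riboflavin kinase Rfk (-0.38 ± 0.30), FAD synthase Flad1 (-0.22 ± 0.29) and the riboflavin transporter Slc52a3 (-0.13 ± 0.37).

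Ubiquinone, the acceptor of Etfdh, is made by the Coq enzymes. Their median change was 0.40 over 7 tested genes, and none passed with or without the block. The largest values were those of Coq7 (0.74 ± 0.40) and Coq5 (0.65 ± 0.31). Mitochondrial content genes had a median of 0.02 over 11 genes, from -0.38 for the import receptor Tomm20 to 0.69 for the chaperone Hspd1, and none passed with or without the block. The transcript of citrate synthase (Cs) read 29324 and 41017 in NTG against 37295 and 44697 in MCK-PPARa, so its groups overlapped. These are transcript signals and not a measurement of mitochondrial content. The differences between these lists and the 7 genes were not tested.

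**Figure D4:**
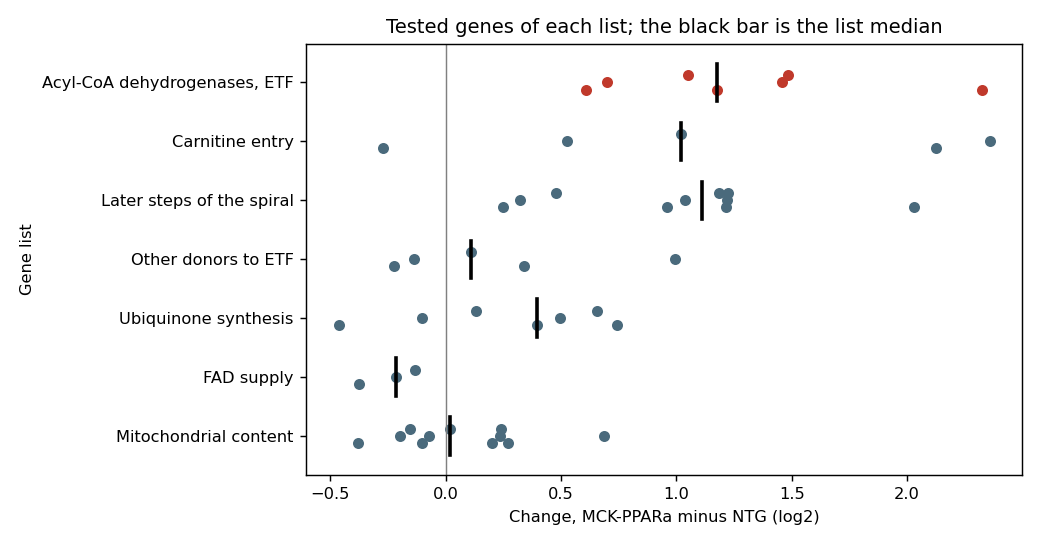
Change of each tested gene on the log2 scale, MCK-PPARa minus NTG, by gene list, with the list median as a black bar and the 7 genes in red. Medians lie at 1.17 for the 7 genes, 1.02 for carnitine entry and 1.11 for later steps, and between -0.22 and 0.40 for the other 4 lists.

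The genes nearest in profile to the 7 were found by the Euclidean distance of centred log2 values over the 4 arrays, which share the same scaling. Nearest to the mean of the 7 were Scp2, which encodes a peroxisomal thiolase and a sterol carrier protein (distance 0.12, change 1.30), Eci2 (0.16), Cenpv (0.16), the triglyceride-forming enzyme Dgat1 (0.18) and Dhrs4, a peroxisomal reductase (0.20). The median distance of all genes from that mean was 1.36, and from single members it ran from 0.84 for Acadm to 2.37 for Etfdh. For single members the nearest gene was Eci1 for Acads (0.015), Jak3 for Acadm (0.025), Kitl for Etfa (0.026) and Tmem140 for Acadvl (0.060). It was Slc1a1, a glutamate transporter gene, for Etfdh (0.14), Tmem205 for Acadl (0.18) and Pim3 for Etfb (0.21). Slc1a1 was dim in NTG (339.6 and 450.8, with the filter at a signal of 423), against 2205.5 and 2066.9 in MCK-PPARa. With 4 arrays a small distance says only that the values moved alike here.

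Markers of skeletal muscle were bright and alike in the genotypes, with a median change of 0.10 over 10 genes. Muscle creatine kinase (Ckm), whose promoter drives the transgene, read 188632 and 168024 in NTG against 233215 and 216517 in MCK-PPARa. Markers of adipocytes, by contrast, had higher values with the transgene. The summed signal of the 8 of 10 adipocyte markers found on the array was 13267 and 10792 in NTG against 63412 and 29580 in MCK-PPARa, and all 5 tested were above 0 (median 1.34). The desaturase Scd1 and the fatty acid binding protein Fabp4 made up most of that sum. Lipe had the smallest change of the 5, at 0.30 ± 0.37, and its groups overlapped. The adipokine gene Adipoq read 1072 and 1504 in NTG against 3477 and 3180 in MCK-PPARa (2.54-fold), and that of resistin (Retn) 1246 and 1361 against 2053 and 2662, so neither gene's groups overlapped. No adipocyte marker passed over all genes, and 3 rose with the block, where 1.37% of all genes rose. They were Scd1 (limma adjusted p = 0.0020), Fabp4 (0.0043) and Adipoq (0.023). Leptin (Lep, 76.9 to 124.5) and Pparg (36.8 to 55.7) were dim on all 4 arrays. The brown adipocyte marker Ucp1 was dim as well (81.1 to 101.9). That list had a median of 0.50 over 5 tested genes and held 1 gene, Cidea, that rose over all genes. Cidea read 83.3 and 107 in NTG against 3900 and 2874 in MCK-PPARa, so it passed the filter on dim probe sets only through its MCK-PPARa signals. Slow-fibre markers were lower, with all 7 below 0 (median -1.48) and summed signals of 123549 and 81780 in NTG against 63041 and 54497 in MCK-PPARa. None passed over all genes, and 3 fell with the block, where 81 of all 8400 genes fell. These 3 were Myh7, Tnnc1 and Tnni1. The medians were 0.26 for endothelial, 0.28 for macrophage, 0.26 for red blood cell and 0.19 for fibroblast markers, and none of their genes passed with or without the block. The part of these shifts in the values of the 7 genes was not tested.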

How the data were processed

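Per the deposited table, signal intensity was given by the authors for 22690 probe sets on 4 arrays, and the submitters' processing notes name MAS5, which makes 1 signal per probe set. The sources used here do not give its version, settings or detection calls. The intensities are linear, and their 2% trimmed means were nearly equal, so no further normalization was made. Names came from the platform annotation, in which 20380 probe sets had 1 symbol. Values were taken as log2(signal + 64.2), the offset being 10% of the median of all values. Probe sets whose mean log2 value lay below the 40th percentile of the non-control probe sets were left out, and each gene was represented by its brightest probe set. The 8400 genes were fitted in limma 3.58.1 under R 4.3.3 (lmFit, eBayes with a variance trend, 7.86 degrees of freedom), two-sided with Benjamini-Hochberg adjustment over all genes at 0.05. Differences between members' changes used per-array log2 values and the exact permutation test, with SEs that limma did not moderate. The fit was tested on simulated data with independent noise on each array, which hold no difference by replicate number. The number of arrays limits the precision.

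The members and lists were chosen with earlier results of these data known. Named were all members, up to 4 genes by p of longer lists and all of lists of up to 6, nearest profiles, and up to 3 markers a cell type list. Acot2, Echs1, Gcdh, Hsd17b10, Lep, Lipe, Pparg, Retn, Tnnc1 and Ucp1 are outside this rule and were named after their values were seen. Deviations from the group means of same-numbered arrays correlated at 0.46 across genes, which are not independent replicates. Alternatives were other offsets, filters, normalizations, variance models and probe set rules, the replicate number as a block, and leaving out each array.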

Additional observations from a re-analysis of the deposited data

How the results depend on the processing

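All 7 genes kept a change above 0 in all 13 alternatives, and Etfdh had the largest change in each. Etfdh ran from 2.07 to 2.59, Acadvl from 1.36 to 1.56, Acadl from 1.05 to 1.92, Acads from 0.95 to 1.40, Etfb from 0.59 to 1.51, Etfa from 0.55 to 0.85 and Acadm from 0.49 to 0.73. In the fit with the replicate block, 196 genes and 5 of the 7 members passed, against 5 and 0 without it. The labels do not say that the number pairs the arrays. With the mean of a gene's probe sets in place of the brightest, 12 genes passed and 1 member, Etfdh (limma adjusted p = 0.049). The stricter filter left 2 genes called and median centring 3. Leaving out 1 array gave between 68 and 150 genes called and 1 or 2 members. The chain-length difference then ran from 0.44 to 0.72, that of Etfdh minus the flavoprotein subunits from 1.04 to 1.86, that of the dehydrogenases minus these subunits from 0.25 to 0.36, the median of the members from 0.95 to 1.37 and their number at an unadjusted p under 0.05 from 4 to 5, where 5.62% to 11.9% of all genes were under that p. That number was 4 under median centring (6.01% of all genes), which moved the median of all genes to -0.05, 5 without a variance trend (5.88%) and 7 with the block (14.6%). The cause of these shifts was not tested. In the fits with 1 array left out, the lone array of a group is assumed to vary like the others. Their numbers and shares of genes and members under a threshold are therefore not comparable with those of the fit to all 4 arrays. No conclusion is drawn from them, and only the sizes of the changes are read from those fits. Without detection calls, background cannot be judged for the dim second Acadl probe set.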
